A study of Mus musculus with 32 samples.

Results

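DNA replication genes were followed through early retinal organoid differentiation in 4 kinds of mouse culture. The 33 genes were taken by symbol from a list covering origin licensing, the MCM helicase, helicase activation, the polymerases and primase, the sliding clamp and its loader, lagging strand maturation, nucleotide supply and single-strand binding. All 33 had a row among the 55492 of the deposited table, and all 33 passed the filter on low values. Levels are FPKM, fragments scaled to transcript length and to the depth of the library, so they can be compared between genes. Group means of the 33 genes ran from 4.31 FPKM (Pola1) to 389.85 FPKM (Pcna).

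The cultures were wild-type Rx:GFP cells (WT), Mettl3 KO cells (KO), and Mettl3 KO cells that overexpress the fusion WTMETTL3-GRBD (WTMTL3-GRBD in the sample titles), kept without dexamethasone (fusion without Dex) or with it at 10 µM (fusion with Dex). METTL3 is the methyltransferase that places N6-methyladenosine on messenger RNA. Dexamethasone is a synthetic glucocorticoid, and the series describes the fusion as cytosolic without it and nuclear with it. Day 0 samples were embryonic stem cells, and those of days 2, 4 and 6 were organoids in medium with AGN at 0.1 µM. No Dex dose is given for the day 0 samples labelled with Dex. All KO and fusion cultures share the Mettl3 knockout, no group received Dex without the fusion, and whether each line is a single clone is not given, so effects of Dex and of the moved fusion, or of Mettl3 loss and of a particular cell line, cannot be told apart. Each of the 16 groups had 2 libraries, prepared in separate rounds. Whether duplicates came from separate cultures is not stated, and p-values then measure only the spread between these libraries.

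Replication starts where the origin recognition complex, Cdc6 and Cdt1 load the MCM2-7 ring on DNA in G1. In S phase Cdc45 and the GINS complex convert the ring into an active helicase. Polymerase alpha with primase then lays primers, polymerases delta and epsilon extend them on the PCNA clamp loaded by replication factor C, and Fen1 and Lig1 process and join the lagging strand fragments. Many of these genes are transcribed at the G1/S boundary under E2F factors, and stem cells, which cycle fast, express them at high levels.

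To show the sequence class that E2F factors bind, promoter windows from RefSeq (GRCm38.p6; 250 bases before to 50 after the annotated start) were searched on both strands for the letters TTTGGCGC, TTTCCCGC, TTTCGCGC and TTTGCCGC. Of the 33 genes 26 had a window, and 12 of these (46.2%) held at least 1 match, against 2.6% of the 27025 genes with a window. The 12 genes were Cdc6, Cdt1, Gins3, Lig1, Mcm3, Mcm5, Mcm6, Mcm7, Orc1, Pola1, Pold1 and Rfc3. A match describes the letters only. The 150 bases before the start are printed for 4 genes that are among the largest changes described below and whose match lies in this stretch, 5′ to 3′ in the direction of the gene, with matches in capitals. Orc1 lies at chr4:108579304-108579453 on the plus strand, Pola1 at chrX:93632156-93632305 on the minus strand, Gins3 at chr8:95633409-95633558 on the plus strand and Mcm6 at chr1:128359706-128359855 on the minus strand.
Orc1: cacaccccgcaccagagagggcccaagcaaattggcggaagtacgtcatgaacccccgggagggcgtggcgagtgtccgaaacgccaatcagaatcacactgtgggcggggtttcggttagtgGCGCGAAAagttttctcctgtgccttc
Pola1: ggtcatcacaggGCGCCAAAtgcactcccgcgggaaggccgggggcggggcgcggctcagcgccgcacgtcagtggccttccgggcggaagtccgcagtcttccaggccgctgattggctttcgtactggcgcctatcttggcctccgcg
Gins3: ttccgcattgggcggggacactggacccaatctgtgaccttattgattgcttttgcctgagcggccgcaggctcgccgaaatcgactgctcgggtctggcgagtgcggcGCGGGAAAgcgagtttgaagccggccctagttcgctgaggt
Mcm6: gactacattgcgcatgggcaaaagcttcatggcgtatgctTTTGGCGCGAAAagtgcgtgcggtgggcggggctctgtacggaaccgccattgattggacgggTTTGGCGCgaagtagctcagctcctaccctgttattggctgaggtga
The Orc1 window has its match at position -27 from the RefSeq start, Pola1 at -138 and Gins3 at -41. The gene spans given below come from GENCODE. For Orc1 and Gins3 they begin before the RefSeq start, at 108579423 and 95633453, so both matches lie inside these spans. Mcm6 has 3 matches, at -110, -106 and -47, of which the first pair overlap on opposite strands. Neither of the Fen1 windows and not the Rfc4 window held a match. The CCAAT box, letters CCAAT, was found in 17 of the 26 genes, against 41.1% of all genes with a window, and the cell cycle element CHR, letters TTTGAA, in 4 of the 26, against 20.2%.

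Estimated depth was 28.2 M to 54.3 M fragments per library (M, mega), with a median of 37.3 M. Duplicates differed by a median of 0.024 to 0.051 on the log2 scale over the 33 genes, most in WT at day 0, where Pcna read 376.23 and 317.21 FPKM. Calls were common at this spread, from 26.7% to 81.9% of the 16276 genes tested. Mettl3 RNA in the libraries labelled KO was close to or above its WT level. At day 0 it averaged 35.0 ± 2.6 FPKM in WT against 43.4 ± 0.67 in KO, at day 2 40.7 ± 0.72 against 39.9 ± 1.4, at day 4 33.5 ± 1.4 against 36.6 ± 2.5, and at day 6 35.7 ± 0.86 against 37.6 ± 0.38 (SD, n = 2 each). Which part of the gene was altered is not given, so this level does not check the label. Stem cell and eye field markers moved with day: the summed level of 8 pluripotency markers in WT was 3906 to 3915 FPKM at day 0 and 420 to 431 FPKM at day 6, and that of 6 eye field markers 21.2 to 22.8 and 751 to 786 FPKM.

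The first question was how the replication genes change as WT stem cells become organoids. Between day 0 and day 6, 27 of the 33 genes were called, 9 higher and 18 lower, where 78.1% of all tested genes were called. A gene was called at an adjusted p under 0.05 in limma over all tested genes. The median change was -0.22 on the log2(FPKM + 1) scale, against 0.089 over all tested genes. All 4 licensing genes fell, while the clamp loader genes Rfc3 and Rfc4 rose. Of the genes off chromosome 8, 9 were called higher and 13 lower with a median of 0.0057, while 5 of the 6 on it were called, all lower, with a median of -0.57. All tested genes of chromosome 8 had a median of -0.18 in this comparison, while the medians of 18 other autosomes ran from 0.0081 to 0.24. The part of the chromosome in these falls was not tested. Rescaling the libraries by median-of-ratios factors moved the median of all genes in this comparison by -0.12 and gave 4 genes higher and 24 lower. Under it the small rises of Mcm4, Rfc2, Pola2 and Mcm7 turned negative.

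Orc1 (ENSMUSG00000028587; GRCm38 chromosome 4, 108579423 to 108614833, plus strand), the largest subunit of the origin recognition complex, showed the widest range of the 33 genes. The WT libraries of days 0, 2, 4 and 6 read 30.33 and 31.22, then 19.68 and 19.69, then 14.53 and 14.9, and last 10.88 and 12.01 FPKM. The level was lower at each later day with no overlap between days. The change from day 0 to day 6 was -1.35 (SE 0.068, adjusted p = 4.5e-13, limma).
Cdt1 (ENSMUSG00000006585; chromosome 8, 122568015 to 122573554, plus strand), which brings the MCM ring to origins, went from 154.03 and 145.23 FPKM in the WT day 0 libraries to 65.55 and 64.35 at day 6. Its change was -1.19 (SE 0.036, adjusted p = 1.4e-16, limma). Cdc6, the ATPase that acts with it, changed by -0.79 (SE 0.047) and Orc6, the smallest origin recognition subunit, by -0.51 (SE 0.028). Cdt1 lies within the longer annotated gene Gm20388 on the same strand, which was not analysed here.

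Mcm10, a factor of helicase assembly, was the third largest WT fall, at -0.81 (SE 0.051). Its libraries read 65.51 and 68.68 FPKM at day 0 and 39.32 and 36.15 at day 6. The clamp loader moved apart: Rfc3 rose from 63.56 and 61.03 FPKM to 105.53 and 106.8, a change of 0.76 (SE 0.032), and Rfc4 from 39.58 and 38.81 to 64.59 and 66.24, a change of 0.72 (SE 0.035). Rfc5, another small subunit of the same complex, went the other way, from 85.91 and 82.63 FPKM to 53.12 and 51.89 (-0.67, SE 0.097). Rrm1, the large subunit of ribonucleotide reductase, rose from 93.5 and 83.88 FPKM to 135.48 and 138.19 (0.62, SE 0.041), while Rrm2, its small subunit, read 157.32 and 142.71 and then 148.56 and 152.34 FPKM and was not called.

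**Figure D1:**
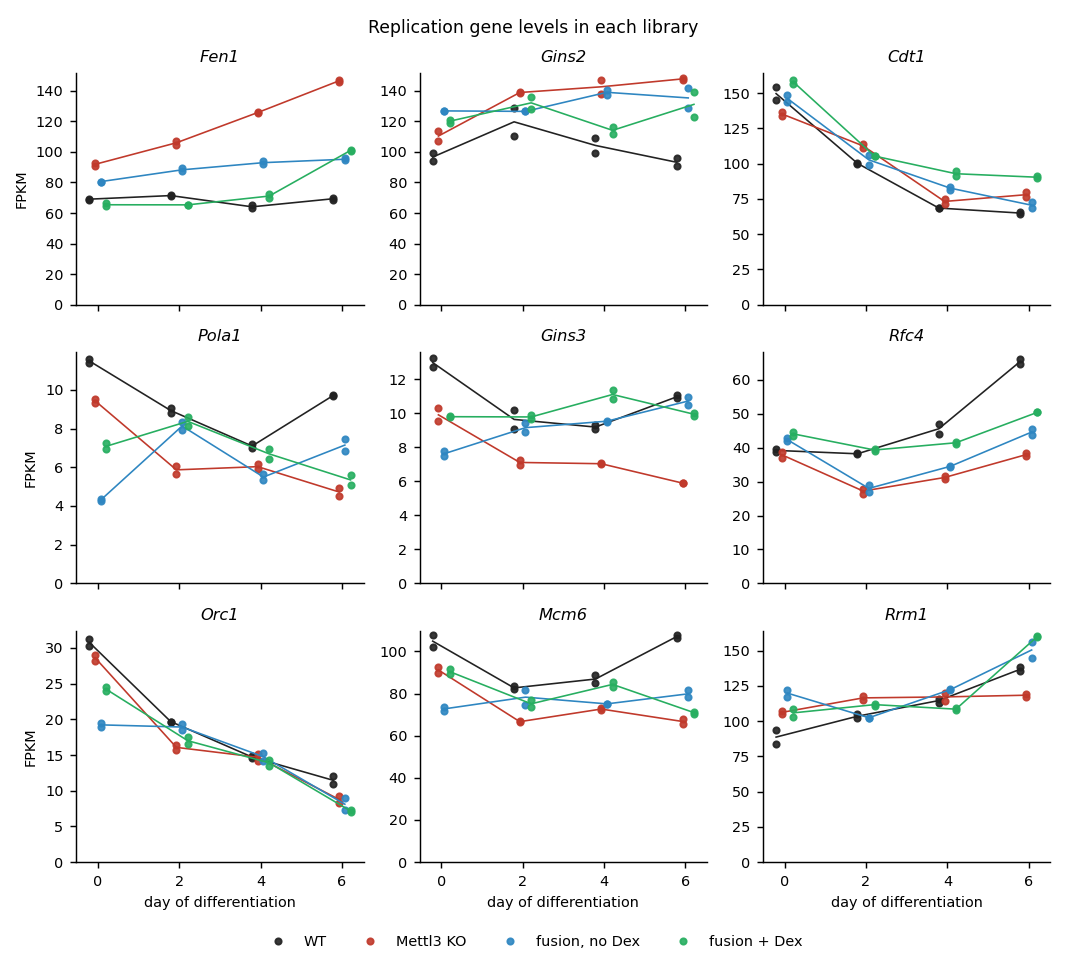
FPKM of 9 replication genes (y axis, linear from 0) against day of differentiation (x axis) in 4 lines. Each point is 1 library and each line joins the means of 2 libraries. Fen1 rises from 92.7 and 91.04 to 147.31 and 145.85 FPKM in KO and stays between 63.16 and 71.48 FPKM in WT. Orc1 is lower at day 6 than at day 0 in every line, although days 0 and 2 overlap in the fusion without Dex.

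The same comparison was made in the other lines. From day 0 to day 6, 32 genes were called in KO (4 higher, 28 lower; 80.4% of all tested genes were called), 28 in the fusion without Dex (7 higher, 21 lower; 81.9%) and 29 in the fusion with Dex (4 higher, 25 lower; 80.4%). On rescaling the splits were 3 and 29, 3 and 27, and 3 and 28. A total of 16 genes were lower at day 6 in all 4 lines: Orc1, Orc6, Cdc6 and Cdt1 of licensing, Mcm2, Mcm3 and Mcm5 of the helicase ring, Cdc45, Gins1, Gins4 and Mcm10 of its activation, the catalytic polymerase subunits Pold1 and Pole, Rfc5, Lig1 and Rpa2. None of the 16 changed sign on rescaling. Singly, 34.5% of all tested genes were called lower in WT, 35.4% in KO, 33.9% in the fusion without Dex and 34.0% with Dex. The share of all tested genes lower in all 4 lines is not given. Rfc3 and Rrm1 were higher in all 4 lines, although Rrm1 in KO turned negative on rescaling.

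Step by step in WT, 25 genes were called from day 0 to day 2 (5 higher, 20 lower; 63.4% of all tested genes), 26 from day 2 to day 4 (8 higher, 18 lower; 59.9%) and 27 from day 4 to day 6 (18 higher, 9 lower; 66.7%). On rescaling these became 8 and 17, 2 and 22, and 9 and 14, so whether most genes rose after day 4 depended on the scale. Orc1, Mcm2, Mcm5, Mcm10 and Pold1 were called lower at every WT step. Lig1, which seals the lagging strand, fell in WT in the first step, from 170.27 and 164.89 FPKM to 92.37 and 97.88 at day 2 (-0.81, SE 0.031), and read 116.99 and 118.08 at day 6. In bulk RNA fewer cells that express a gene and less RNA per cell cannot be told apart.

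**Figure D2:**
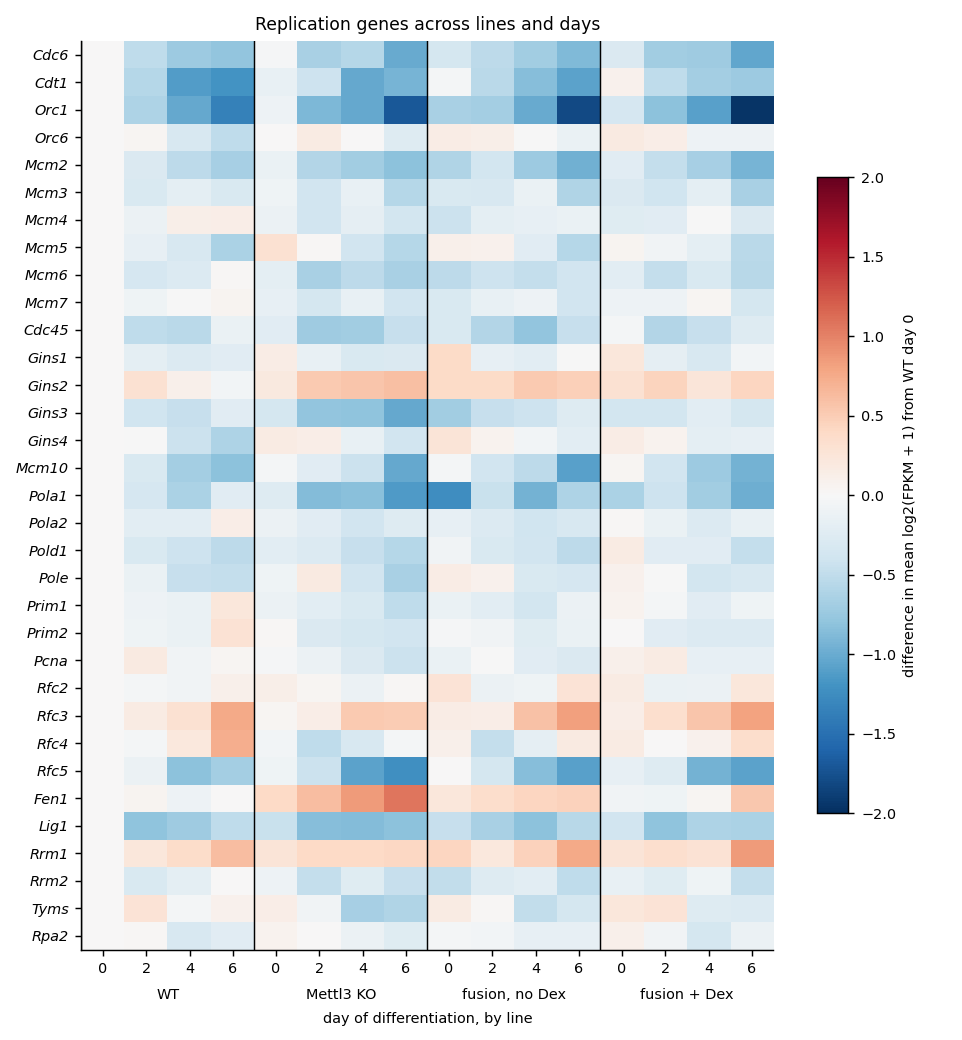
Difference of the mean log2(FPKM + 1) of 2 libraries from the WT day 0 mean for the 33 genes (rows, ordered by role) in 4 lines at days 0, 2, 4 and 6 (columns). Blue is lower and red higher than WT day 0, with a lowest value of -1.96. Orc1, Cdt1, Cdc6, Rfc5 and Mcm10 are lower at day 6 than at day 0 in every line, and Fen1 turns red in KO.

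The MCM2-7 subunits form 1 ring with 1 copy of each, and their RNA levels differed. Mcm4 had the lowest FPKM of the ring in 32 of 32 libraries, between 6.6% and 10.0% of the summed level of the ring. Mcm5 was highest in 17 libraries and Mcm7 in 15. Their median shares of the summed level were 26.6% for Mcm5 and 26.1% for Mcm7. The summed level of the ring fell from a mean of 960.0 FPKM in WT at day 0 to 800.2 at day 6, and from 950.4 to 650.7 in KO, a description of sums over genes without a test. Mcm2 and Mcm5 were called lower at every step in WT, KO and the fusion with Dex. Mcm5 went from 245.41 and 252.34 FPKM to 159.95 and 160.42 in WT, and from 306.29 and 309.56 to 166.8 and 167.5 in KO.

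**Figure D3:**
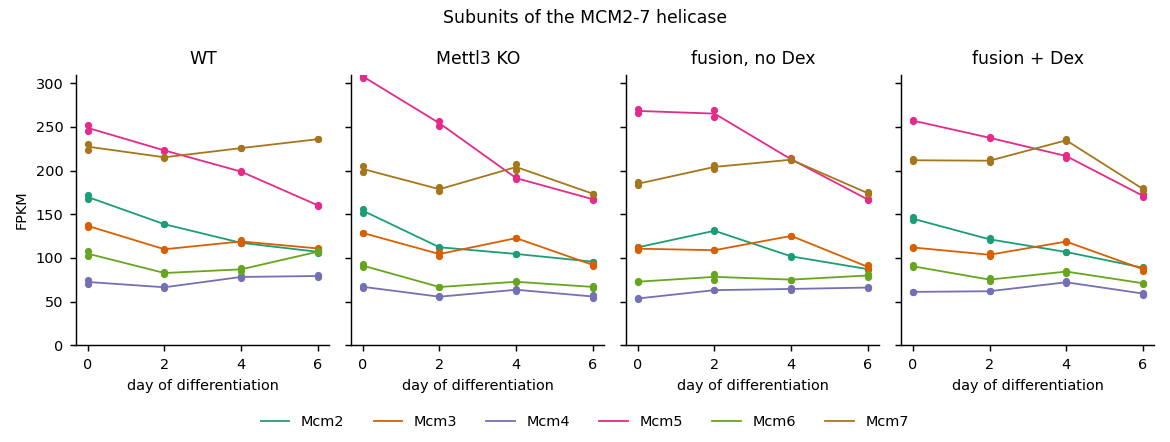
FPKM of the 6 MCM2-7 subunits (y axis) against day (x axis), 1 panel per line. Points are libraries and lines join the means of 2. Mcm4 is lowest throughout, and Mcm5 falls with day so that Mcm7 lies above it at day 6 in all panels.

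The comparison of KO with WT joins the loss of Mettl3 and any other difference between the cell lines. At day 6, 30 of the 33 genes were called, 6 higher and 24 lower, where 65.1% of all tested genes were called (30.9% higher, 34.2% lower). The median difference was -0.27, against -0.031 over all tested genes. Every polymerase, primase, clamp and clamp loader gene that was called was lower in KO, as were 5 of the 6 ring subunits and all 3 nucleotide supply genes, while Fen1 was higher. Gins1, Pold1 and Rpa2, a subunit of the single-strand binding protein RPA, were not called.

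Of the 33 genes 6 lie on chromosome 8 (Cdt1, Gins2, Gins3, Gins4, Mcm5 and Orc6), and expression of this chromosome as a whole stood apart. Over its 858 tested genes the median KO against WT difference went from 0.0054 at day 0 through 0.24 and 0.34 to 0.35 at day 6. The medians of 18 other autosomes ran from -0.11 to 0 at day 6. From day 0 to day 6 the chromosome 8 median was -0.18 in WT, below the other autosomes (0.0081 to 0.24). It lay within their range in KO (0.14, range 0.020 to 0.19) and in the fusion without Dex (0.13, range 0.025 to 0.31) and with Dex (0.16, range 0.045 to 0.24). Of the 6 genes there, 5 were higher in KO at day 6 and Gins3 was lower. Of the 858 tested genes there, 651 were called at day 6, 539 higher and 112 lower. Off chromosome 8, 24 of 27 genes were called at day 6, 1 higher (Fen1) and 23 lower, with a median of -0.34. Of all 15418 tested genes off it, 9940 were called, 4490 higher and 5450 lower, with a median of -0.048. The part of the chromosome in the 6 genes' differences was not tested.

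Fen1 (ENSMUSG00000024742; chromosome 19, 10199132 to 10204169, minus strand), the nuclease that removes the flap of the lagging strand primer, was the largest rise. The WT libraries of days 0, 2, 4 and 6 read 68.71 and 69.45, then 71.48 and 71.37, then 64.98 and 63.16, and last 70.06 and 68.69 FPKM. KO libraries read 92.7 and 91.04, then 104.78 and 107.2, then 126.07 and 125.52, and 147.31 and 145.85 FPKM. WT ended where it began (0.006, SE 0.021, not called) and KO rose at every step, with no overlap between the lines on any day. The difference grew over days 0, 2, 4 and 6, with values of 0.41, 0.56, 0.96 and 1.068 (SE 0.021 each; adjusted p = 9.3e-19 at day 6, limma). The annotated antisense gene Gm10143 that overlaps Fen1 had group means of 0.29 to 0.765 FPKM. The coding gene Tmem258 overlaps it by 156 bases on the other strand and read 111.8 FPKM in WT and 109.9 in KO at day 6. Whether counting used strand is not given.

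Gins2 (ENSMUSG00000031821; chromosome 8, 120578633 to 120589304, minus strand), a GINS subunit, was next, with 90.46 and 95.94 FPKM in WT and 147 and 148.59 in KO at day 6 (0.66, SE 0.066, adjusted p = 3.8e-08, limma). It overlaps Gse1 and Gm20388 on the other strand. Gins3 (ENSMUSG00000031669; chromosome 8, 95633453 to 95645060, plus strand), its partner in the same complex of 4 proteins, read 10.88 and 11.06 FPKM in WT and 5.88 and 5.91 in KO (-0.80, SE 0.046, adjusted p = 1.1e-11). Of the other GINS genes Gins4 was higher (0.23, SE 0.037) and Gins1 was not called (-0.055, SE 0.038). Cdt1 read 65.55 and 64.35 FPKM in WT and 76.18 and 79.76 in KO, a difference of 0.26 (SE 0.036).

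Pola1 (ENSMUSG00000006678; chromosome X, 93304767 to 93632155, minus strand), the catalytic subunit of polymerase alpha, was the largest fall. It read 9.73 and 9.7 FPKM in WT and 4.92 and 4.52 in KO at day 6 (-0.91, SE 0.052, adjusted p = 9.3e-12, limma). The median of all tested X-linked genes was -0.17. The primase genes moved the same way: Prim1, the catalytic primase subunit, read 60.1 and 61.82 against 36.64 and 35.53 FPKM (-0.74, SE 0.051), and Prim2, its large subunit, 32.7 and 33.08 against 20.66 and 19.75 (-0.68, SE 0.033). Pola2, the accessory subunit, differed by -0.39 (SE 0.039). All 4 genes of the primer-making complex were therefore lower in KO at day 6.

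Rfc4 (ENSMUSG00000022881; chromosome 16, 23113943 to 23127737, minus strand) was the third largest fall, with 64.59 and 66.24 FPKM in WT and 37.47 and 38.4 in KO (-0.77, SE 0.035, adjusted p = 2.9e-13, limma). It overlaps Eif4a2 on the other strand by 194 bases. Rfc4 was not called at day 0 (-0.047, SE 0.035), and its WT rise between day 0 and day 6 had no counterpart in KO, where the change was 0.0013 (SE 0.035). The rest of the clamp group fell by less: Rfc5 differed by -0.55, Pcna, the clamp itself, by -0.47, Rfc3 by -0.25 and Rfc2 by -0.075. Tyms, thymidylate synthase, read 149.13 and 143.69 FPKM in WT and 93.92 and 87.97 in KO at day 6 (-0.68, SE 0.045), and Rrm2 differed by -0.46 (SE 0.033).

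In the ring Mcm6 differed most, with 107.75 and 106.35 FPKM in WT and 67.72 and 65.72 in KO (-0.67, SE 0.037), followed by Mcm4 (-0.50) and Mcm7 (-0.44). Mcm2 and Mcm3 differed by -0.16 and -0.27. Mcm5, on chromosome 8, was slightly higher in KO (0.061, SE 0.018).

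**Figure D4:**
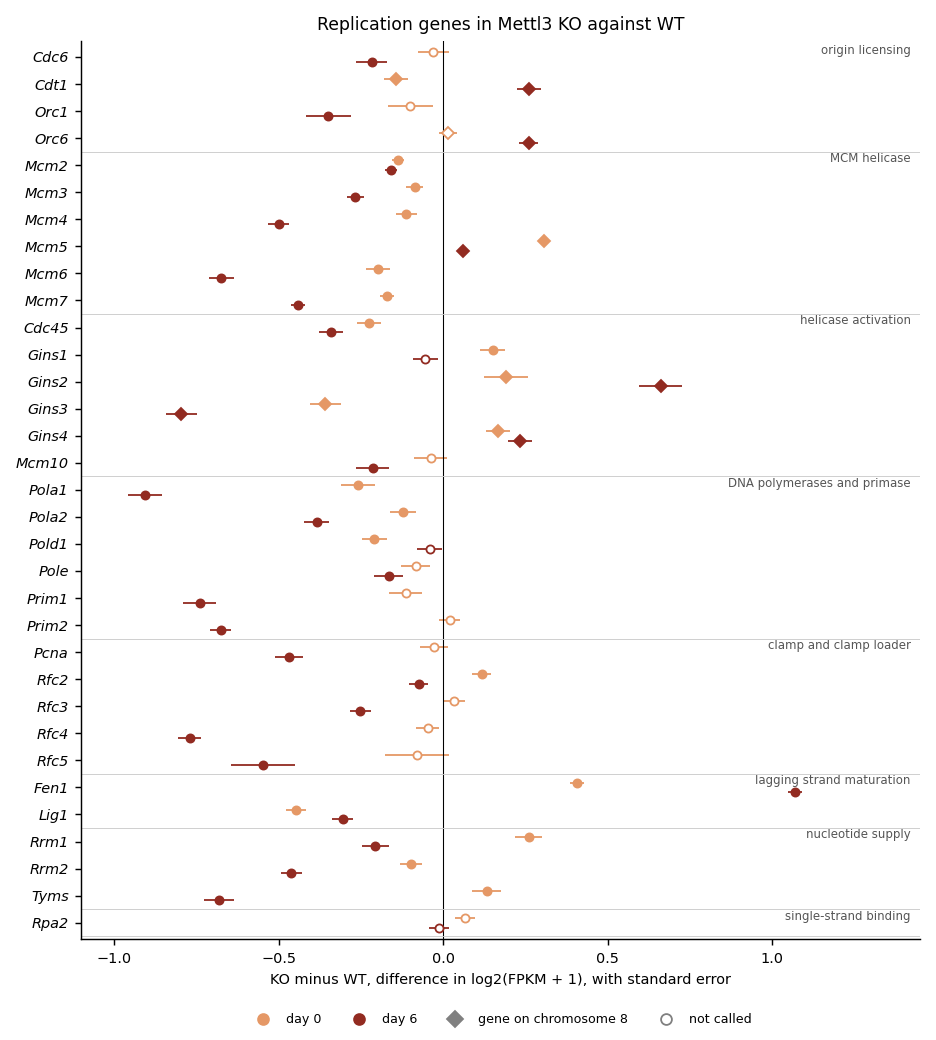
Difference in log2(FPKM + 1) between KO and WT (x axis) for each of the 33 genes (y axis, grouped by role) at day 0 and day 6. Points are limma estimates over 2 libraries per group, bars are standard errors, diamonds mark genes on chromosome 8 and open points were not called. Fen1 lies at 1.068 and Pola1 at -0.91 at day 6, and at day 0 all genes lie between -0.45 and 0.41.

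On earlier days fewer genes were called, and single genes differed in either order of size. Lig1, Mcm5 (0.31) and Pold1 (-0.21) differed more at day 0 than at day 6, and Rrm1 (0.26 and -0.21) had opposite signs at days 0 and 6, its day 0 call being lost with only the compared groups in the fit (adjusted p = 0.077). At day 0, 21 genes were called (8 higher, 13 lower; 48.2% of all tested genes, 29.8% lower), with a median of -0.080, and the largest were Lig1 (170.27 and 164.89 FPKM in WT, 120.61 and 124.73 in KO; -0.45, SE 0.031), Fen1 and Gins3 (-0.36, SE 0.046). Fitting the WT and KO day 0 libraries alone left 8 genes called. At day 2, 25 were called (9 higher, 16 lower; 58.9%, 37.5% higher), and 3 higher and 21 lower on rescaling. At day 4, 25 were called (9 higher, 16 lower; 60.5%, 36.5% higher), and 7 higher and 20 lower on rescaling. Fen1, Gins2 and Gins4 were higher at all 4 days, and Cdc45, Gins3, Mcm2, Mcm4, Mcm6, Mcm7 and Pola1 lower at all 4. None of these 10 changed sign on rescaling. All 10 rest on a day 0 call, and only 8 genes were called with the day 0 libraries fitted alone. Not all of the 10 therefore hold in that fit. Gins2, Gins3 and Gins4 lie on chromosome 8. The share of all tested genes called in the same direction at all 4 days is not given.

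Other lists gave the setting at day 6 in KO against WT, where 65.1% of all tested genes were called (30.9% higher, 34.2% lower). Of 41 other replication genes 31 were called, 10 higher and 21 lower, with a median of -0.20. The largest rise among them was Tk1, cytosolic thymidine kinase, with means of 59.1 ± 0.11 FPKM in WT and 132 ± 1.5 in KO (SD, n = 2), and the largest fall was Dut, which removes dUTP, with 166.9 ± 2.6 and 101.3 ± 2.7 FPKM. The means of Tk1 were 111 ± 4.7 FPKM in the fusion without Dex and 116 ± 2.2 with Dex. Of 26 regulators of the G1/S transition 22 were called, 9 higher and 13 lower. Among them Cdkn1c, a CDK inhibitor, was at 111 ± 1.5 FPKM in WT and 26.6 ± 2.2 in KO, and Cdkn1a, another, at 33.2 ± 0.69 and 56.7 ± 0.26 FPKM. Of 20 mitosis genes 17 were called, 1 higher (Birc5, 0.32) and 16 lower, with a median of -0.31 and Nusap1, a spindle protein, at -0.94.

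Markers of other cell types moved with these differences. Here too 65.1% of all tested genes were called, 30.9% higher and 34.2% lower. Of 8 postmitotic neuron markers 7 were called in KO against WT at day 6, all higher. Their summed level was 50.1 to 52.3 FPKM in WT, 315 to 320 in KO, 257.9 to 258.3 in the fusion without Dex and 154 to 155 with Dex at day 6, with none of the markers at 0. In WT at day 0 it was 338 to 341 FPKM, mostly Stmn2 (178.2 ± 2.4) and Tubb3 (155.6 ± 5.6). Tubb3, neuronal tubulin, was at 29.2 ± 0.39 FPKM in WT and 266 ± 2.4 in KO. Of 6 neural progenitor markers 5 were called higher and 1 lower (summed level 443 to 447 FPKM in WT, 904 to 911 in KO), of 6 eye field markers 1 higher and 4 lower (751 to 786 and 319 to 322), of 8 pluripotency markers 1 higher and 7 lower (420 to 431 and 269 to 272). Most of the pluripotency sum in KO was Sox2 (210.9 ± 0.55 FPKM, 196.5 ± 0.35 in WT), the 1 marker called higher. Most of the eye field sum in KO was Otx2 (203.1 ± 0.63 FPKM, 104.8 ± 0.70 in WT) and Pax6 (111.7 ± 0.64, 110.1 ± 1.5 in WT). The median difference of the 6 eye field markers was -5.71. Rax was at 118.2 ± 4.7 FPKM in WT and 0.30 ± 0.028 in KO, and Six3 at 131.9 ± 9.0 and 0.635 ± 0.078. Of 8 mesendoderm markers 6 were tested, and 5 were called lower (41.2 to 41.8 and 1.53 to 1.84), and of 6 fibroblast markers 3 were higher and 2 lower (12.6 to 13.3 and 9.94 to 10.03). The part of these cell types in the replication gene differences was not tested.

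The comparison of the fusion without Dex with KO joins the added METTL3, described as cytosolic, and any other difference between the lines. At day 6, 21 of the 33 genes were called against KO, 18 higher and 3 lower, where 49.0% of all tested genes were called (21.1% higher, 27.9% lower). The median was 0.13, against -0.014 over all tested genes. Gins3 showed the largest rise, from 5.88 and 5.91 FPKM in KO to 10.97 and 10.47 (0.77, SE 0.046, adjusted p = 7.2e-11, limma), which lies beside the 10.88 and 11.06 of WT. Pola1 read 7.45 and 6.84 FPKM (0.51, SE 0.052) and Prim1 48.83 and 47.13 (0.40, SE 0.051), both between the KO and the WT libraries.

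Fen1 was the largest fall in that comparison, at 95.95 and 94.49 FPKM against 147.31 and 145.85 in KO (-0.62, SE 0.021, adjusted p = 2.5e-14, limma). Cdt1 (-0.14, SE 0.036) and Mcm2 (-0.13, SE 0.019) were the other called falls. The call of Cdt1 was lost without the first fusion library without Dex, at -0.100 with adjusted p = 0.064, and with only the compared groups in the fit (adjusted p = 0.086). These differences share the KO libraries with the comparison of KO and WT, so an opposite sign in both is not independent evidence.

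At day 0 the fusion without Dex differed from KO in 24 genes (10 higher, 14 lower; 49.1% of all tested genes, 29.8% lower), and in 16 higher and 11 lower on rescaling. Pola1 was lowest of all groups there, at 4.24 and 4.37 FPKM against 9.32 and 9.55 in KO (-0.98, SE 0.052). Orc1 read 19.53 and 18.92 against 28.23 and 29.05 FPKM (-0.55, SE 0.068), and Mcm2 112.38 and 111.77 against 156.3 and 151.87 (-0.46, SE 0.019). The libraries of these 3 genes did not overlap between the lines. At day 2, 19 genes were called (14 higher, 5 lower; 37.0%), and at day 4, 10 (8 higher, 2 lower; 26.7%), or 14 higher and 1 lower on rescaling at day 4. The day 4 count was 5 with only the KO and fusion libraries of that day in the fit, 6 without the genes on chromosome 8, and 6 or 5 without the first or the second fusion library. Gins3 and Prim2 were higher and Fen1 lower than in KO at days 2, 4 and 6.

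The fusion with Dex was then compared with the fusion without it, a contrast that joins Dex itself and the described move of METTL3 to the nucleus. At day 6, 13 genes were called against the fusion without Dex, 7 higher and 6 lower, where 42.7% of all tested genes were called, and the median was 0.026, against 0.0089 over all tested genes. Cdt1 showed the largest rise with Dex, at 91.21 and 89.5 FPKM against 68.36 and 72.68 (0.35, SE 0.036, adjusted p = 1.9e-07, limma). Cdc45 read 36.64 and 37.04 against 32.66 and 30.9 FPKM (0.21, SE 0.037), and Rfc4 50.37 and 50.46 against 45.41 and 43.8 (0.17, SE 0.035). Pola1 was lower with Dex, at 5.61 and 5.08 against 7.45 and 6.84 FPKM (-0.36, SE 0.052, adjusted p = 1.4e-05). Mcm6 differed by -0.17 (SE 0.037) and Cdc6 by -0.16 (SE 0.047). The call of Cdc6 was lost without the second library without Dex (adjusted p = 0.10) and without the first with Dex (adjusted p = 0.12), and with only the compared groups in the fit (adjusted p = 0.10).

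The protocol gives Dex times of 2, 4 and 6 days only, and day 0 samples were grouped by their own labels. At day 0, 21 genes were called with Dex against without (15 higher, 6 lower; 43.4% of all tested genes), or 11 higher and 9 lower on rescaling. Pola1 was at 6.94 and 7.23 FPKM with Dex and 4.24 and 4.37 without (0.61, SE 0.052), the opposite sign to day 6. Mcm2 (0.37, SE 0.019) and Rrm2 (0.34, SE 0.033) were the next rises. Day 2 gave 14 calls, split 7 up and 7 down, beside 12.7% up and 31.5% down over all tested genes (44.3% together). After rescaling the split was 20 up and 1 down, and Mcm2 and Mcm3 changed sign. Rises made up 28.7% of the calls over all tested genes before rescaling and 50.1% after it. Rfc4 was highest at that day, with 39.65 and 38.97 FPKM against 28.95 and 27.04 (0.48, SE 0.035). At day 4, 24 were called (15 higher, 9 lower; 40.2%), led by Cdc45 (32.4 and 31.55 against 25.51 and 24.87 FPKM; 0.33, SE 0.037).

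Pola2 was called higher with Dex at all 4 days. It read 65.96 and 67.3 against 58.24 and 59.63 FPKM at day 0, and 56.6 and 62.15 against 51.76 and 53.35 at day 6. The share of all tested genes called higher at all 4 days is not given. Fen1 was lower with Dex at day 0 (64.57 and 66.26 against 80.49 and 80.64 FPKM; -0.30), day 2 (65.4 and 65.3 against 87.42 and 89.16; -0.43) and day 4 (72.37 and 69.85 against 92.1 and 93.87; -0.38; SE 0.021 each). At day 6 it was slightly higher, at 101.05 and 100.93 against 95.95 and 94.49 FPKM (0.084, SE 0.021, adjusted p = 0.0031, limma). Against WT, Fen1 with Dex differed by -0.078, -0.13 and 0.15 at days 0, 2 and 4, and its step from day 4 to day 6 was 0.50 (SE 0.021).

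Against WT, the fusion with Dex had 24 called genes at day 0 (12 higher, 12 lower; 49.8% of all tested genes), 14 at day 2 (4 higher, 10 lower; 29.4%), 16 at day 4 (11 higher, 5 lower; 44.7%) and 31 at day 6 (11 higher, 20 lower; 61.4%). On rescaling the first 3 splits were 17 and 9, 9 and 5, and 8 and 11. The day 2 count was 6 with only the compared groups in the fit, 9 without the first WT library and 7 without the second library with Dex. At day 6 Fen1 (0.54, SE 0.021), Gins2 (0.49, SE 0.066) and Cdt1 (0.47, SE 0.036) were highest over WT. Gins2 and Cdt1 lie on chromosome 8, where the median of all tested genes was 0.35 in this comparison against -0.12 to 0.025 on 18 other autosomes, and the part of the chromosome was not tested. Pola1 (-0.76, SE 0.052), Orc1 (6.97 and 7.35 against 10.88 and 12.01 FPKM; -0.61, SE 0.068) and Mcm6 (-0.59, SE 0.037) were lowest. Over the 4 groups at day 6, WT had the highest mean of 20 of the 33 genes and KO the lowest of 20. WT had the lowest mean of 6, which were Fen1 and, on chromosome 8, Cdt1, Gins2, Gins4, Mcm5 and Orc6. These ranks were not tested, and no share over all tested genes is given beside them.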

How the data were processed

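Poly(A) RNA of 32 libraries was sequenced. The deposited table holds FPKM, computed by the authors; the submitters' processing notes name STAR, Cuffdiff and the build mm10, with no version. Gene positions come from GENCODE M21 (GRCm38), which matched 99.5% of rows by gene ID. Fragment totals were inferred from the spacing of low FPKM values.

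Tests used limma 3.58.1 in R 4.3.3 on log2(FPKM + 1), with a mean-variance trend. Genes with at least 1 FPKM in at least 2 libraries (16276) entered 1 fit of 16 group means with 16 residual degrees of freedom. Calls were made at a two-sided Benjamini-Hochberg adjusted p under 0.05 over all tested genes. Shares of all tested genes refer to single comparisons without rescaling. The log2(FPKM + 1) scale understates changes of low genes. The fit was tested on simulated data. The 33 genes and the lists were chosen with earlier results of these data known.

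Named genes were members, Mettl3 and, of other lists, at most the 2 largest rises and falls per comparison. Members with every library were the 3 largest rises and falls among called genes whose libraries do not overlap, with others chosen after their values were seen. Alternatives were a pseudocount of 0.1, no filter, a mean of at least 5 FPKM, median-of-ratios rescaling, the compared groups alone, a replicate block, chromosome 8 left out, and each library left out.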

Additional observations from a re-analysis of the deposited data

Results flagged for a closer look

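Differences between lines in the change from day 0 to day 6 were tested as interaction terms in limma. For KO against WT, 28 of the 33 genes were called, 6 higher and 22 lower, where 56.9% of all tested genes were called. The change was more positive in KO for Fen1 (0.66), Gins2 (0.47) and Cdt1 (0.40), and more negative for Tyms (-0.81), Rfc4 (-0.72) and Prim2 (-0.70). Gins2 and Cdt1 lie on chromosome 8, whose median over all tested genes was 0.33. In WT Tyms read 134.85 and 140.69 FPKM at day 0 and 149.13 and 143.69 at day 6, and in KO 145.58 and 156.6 and then 93.92 and 87.97.

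For the fusion with Dex against that without Dex, 18 genes were called, 5 higher and 13 lower (48.7% of all tested genes), and 8 higher and 8 lower on rescaling. The change was more positive with Dex for Fen1 (0.38), Rrm1 (0.27) and Cdt1 (0.24), and more negative for Pola1 (-0.97), Mcm6 (-0.48) and Orc1 (-0.47). These terms include the day 0 difference between the groups labelled with and without Dex, which was 0.61 for Pola1 and -0.30 for Fen1. No Dex dose or time is given for day 0, so they are not changes under Dex alone. Pola1 rose without Dex, from 4.24 and 4.37 FPKM to 7.45 and 6.84, and read 6.94 and 7.23 and then 5.61 and 5.08 with Dex. With 2 libraries a group, no library was tested as outlying.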

How the results depend on the processing

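With only the compared groups in the fit, the count of called genes was 8 for KO against WT at day 0, 5 for the fusion without Dex against KO at day 4 and 6 for the fusion with Dex against WT at day 2. Without the genes on chromosome 8, the count for the fusion without Dex against KO at day 4 was 6. With 1 library left out, the lone library assumed to vary like the other groups, that count ran from 5 to 7 (6 without the first and 5 without the second library without Dex), and that of the fusion with Dex against WT at day 2 from 7 to 11. Across the other alternatives all counts stayed within 1.5 times the reported one. For KO against WT at day 6 the count was 29 to 30 with a library left out. Of 48 log2 changes of named genes, 4 lost their call in the fits of the compared groups alone: Rrm1 in KO against WT at day 0 (adjusted p = 0.077, limma), Rrm1 with Dex against without at day 0 (0.054), Cdt1 in the fusion without Dex against KO at day 6 (0.086) and Cdc6 with Dex against without at day 6 (0.10). The other 44 held there. Of 216 recomputed with a library left out, 6 lost their call (Gins2 at day 0, Cdt1 and Cdc6 at day 6). No change of direction occurred among them. The replicate number as a block gave 30 called genes for KO against WT at day 6, and no count moved by over 1.5 times; duplicate differences correlated between groups at -0.088 to 0.125 (120 group pairs), and the numbers were therefore not taken to pair the libraries. The fits assume that 2 libraries describe a group, and intervals for cultures cannot be had where duplicates may share one.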
